A study of Mus musculus with 7 samples.

Results

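The transcripts described here come from 9 genes of the cytoskeleton, of ubiquitin and of chromatin: the cytoplasmic actins Actb and Actg1, the actin monomer binding genes Tmsb4x, Tmsb10 and Pfn1, the filament severing gene Cfl1, the alpha tubulin gene Tuba1b, the polyubiquitin gene Ubb and the histone variant gene H2az1. They were found by their NCBI mouse gene numbers and make up 9 of the 24990 features counted in each library. The set was chosen by the levels of several of its genes, which were low in the libraries WT2 and pKO2, so levels in those libraries describe the choice and are given with no test.

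RNA was read from its 3′ end (QuantSeq) in 7 libraries of embryoid bodies, clumps of stem cells that begin to form the germ layers. All came from the mouse embryonic stem cell line R1, were freed of feeder fibroblasts on gelatin, aggregated as hanging drops of 500 cells in 27 µl in serum medium without Lif, and were collected on day 4. By title the libraries are pInv (1 library, inversion of the promoter of the Meteor long noncoding RNA), pKO (2 libraries, knockout of the Meteor promoter), WT (2 libraries), KD (1 library, CRISPR knockdown of Meteor) and Ctrl (1 library, empty vector). In 5 of 7 cases the genotype field of the labels goes against the title, as WT1 and WT2 carry the promoter knockout there, pKO1 the inversion, and pKO2 and pInv WT. The groups below follow the titles, and the KD label names dCas9 where the design text names Cas9. The labels do not say whether libraries with the same title come from separate clones or cultures, and a p-value then reflects just the spread between those libraries, which may be technical.

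Actin exists in cells as monomers and as filaments. Thymosins (Tmsb4x, Tmsb10) hold monomers in reserve, profilin (Pfn1) brings them to growing filament ends, and cofilin (Cfl1) severs old filaments. Free actin monomers also hold back the coactivator of the serum response factor SRF, whose binding site, the CArG box, lies in the promoters of several actin genes. Ubb encodes ubiquitin as a chain of head-to-tail repeats, and H2az1 encodes H2A.Z, a histone variant found at promoters. Actb is widely used as a reference gene for expression measurements.

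The libraries held 1898350 (WT2) to 2564478 (WT1) expected counts, of which 45S ribosomal RNA took 12.9 to 24.1%, most in WT2. Of all features, 10265 passed the filter on low counts and were tested, and all 9 genes were among them, Pfn1 only through its level in KD. Levels are given as CPM, counts scaled to a common library total, after TMM scaling, whose factor per library ran from 0.881 in WT2 to 1.057 in KD. Pluripotency and primitive streak markers were present in every library, with Pou5f1 at 1086 to 2188 CPM and Eomes at 312 to 459 CPM. The 8 primitive streak markers summed to 564 CPM in WT2, while the other 6 libraries lay at 1231 to 2548 CPM. The 10 feeder fibroblast markers summed to 3.05 to 8.77 CPM, with Fap at 0 in all libraries.

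The label of abundant transcripts holds for some of the 9 genes only. Compared per length as mean TPM over the 7 libraries, H2az1 (5626 TPM, rank 18 of 24990), Actb (4967 TPM, rank 21) and Tuba1b (3114 TPM, rank 47) were among the most abundant. Reads of a 3′ kit do not grow in number with transcript length, and by share of counts the order was another: Actb had rank 11, Tuba1b rank 28 and H2az1, whose model is short, rank 65. Actg1 had a mean of 749 TPM, Tmsb10 of 356 TPM and Cfl1 of 134 TPM. The rows of Ubb (42.0 TPM, rank 2461), Tmsb4x (17.3 TPM, rank 4523) and Pfn1 (4.8 TPM, rank 8154) were low here: Tmsb4x rested on 175 counts over all libraries and Pfn1 on 52. The Ubb row is uncertain, as given below: joined with the row of Ubb-ps, it came to 368.5 to 725.4 CPM. Whether these rows hold all reads of their genes was not tested. Together the 9 genes took 0.725% of the counts of WT2, while their share elsewhere was 1.01 to 1.2%. The ratio of the highest to the lowest library was 1.84 for Cfl1, 1.88 for Actb, 2.5 for Tuba1b, 3.5 for H2az1, 3.87 for Actg1 and 4.39 for Tmsb10, and 20.8 for Pfn1, 33.9 for Tmsb4x and 40.5 for Ubb.

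**Figure D1:**
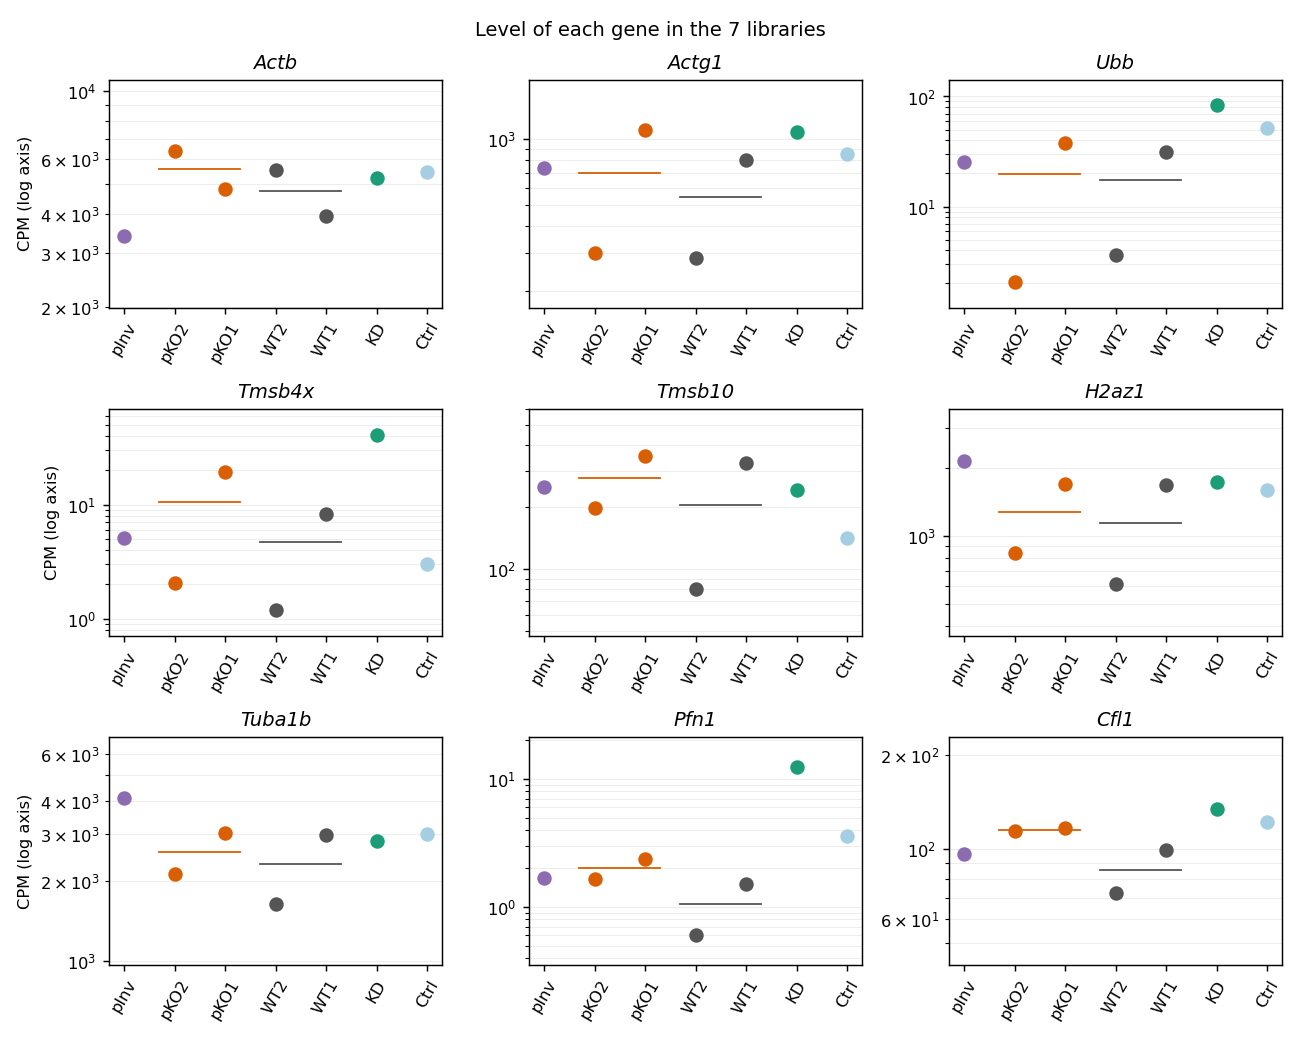
Level of each gene in CPM (log axis, a separate scale per gene) in the 7 libraries, 1 point per library, with a line at the mean of pKO and of WT. Actg1, Ubb, Tmsb4x, H2az1 and Tuba1b have their lowest points in WT2 and pKO2, while Actb has its lowest in pInv and its highest in pKO2.

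Promoters of 3 of the 5 genes with their lowest levels in WT2 and pKO2 (Actg1, H2az1 and Ubb) are shown with their CCAAT and CArG boxes. Tmsb4x and Tuba1b, also among the 5, held neither in the 250 bases searched and are not shown. Each line gives the 120 bases before the transcript start, from RefSeq on GRCm38.p6, 5′ to 3′ on the gene's strand, with CCAAT boxes (CCAAT or ATTGG) and the CArG box (CCATATATGG in Actg1) in capitals. These coordinates are not those of mm9, the build of the counts.
Actg1, chr11:120348496-120348615, minus strand: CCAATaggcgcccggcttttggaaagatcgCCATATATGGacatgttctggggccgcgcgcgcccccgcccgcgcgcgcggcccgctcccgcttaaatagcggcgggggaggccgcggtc
H2az1, chr3:137864367-137864486, plus strand: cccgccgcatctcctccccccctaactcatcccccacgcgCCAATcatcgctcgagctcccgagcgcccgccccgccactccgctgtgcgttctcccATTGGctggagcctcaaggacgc
Ubb, chr11:62551051-62551170, plus strand: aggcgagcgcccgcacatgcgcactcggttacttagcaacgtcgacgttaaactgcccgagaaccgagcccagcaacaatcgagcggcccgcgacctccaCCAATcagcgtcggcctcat
Actb has no entry in the promoter table and was not searched. A CArG box was found at 90 bases before the start of Actg1 and in none of the other 7 genes with a promoter in the table, against 1.47% of all 32851 promoter windows of 250 bases. A CCAAT box, on either strand, stood in the windows of Actg1, Ubb, H2az1 and Cfl1, against 33.8% of all windows, and none of the 8 genes searched held TATAAA (12.4% of all windows) or the heat shock motif GAANNTTC (6.69%). The GC box GGGCGG, on either strand, was found in a window of 7 of these 8 genes, all but Cfl1, against 32.7% of all windows. Ubb had 2 windows and Tmsb10 had 3, so counts of genes and shares of windows are unlike measures. Ubb held GGGCGG only in its window 2, not in the one printed. These matches are descriptions of the letters only.

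The 2 cytoplasmic actins differed in opposite directions between libraries of the same title. Actg1 (NCBI gene 11465, chromosome 11) stood at 740.1 CPM in pInv, 301 CPM in pKO2 and 1105 CPM in pKO1, 286 CPM in WT2 and 803 CPM in WT1, 1084 CPM in KD and 858 CPM in Ctrl. WT2 and pKO2 were thus the lowest, clear of the other 5 libraries. The ratio was 0.272 for pKO2 against pKO1 (exact 95% binomial interval 0.25 to 0.296) and 0.356 for WT2 against WT1 (0.322 to 0.393). Such intervals cover counting error only and, as these libraries chose the genes, are no test of a difference.

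Actb (gene 11461, chromosome 5) was at 3393 CPM in pInv, 6364 CPM in pKO2 and 4811 CPM in pKO1, 5563 CPM in WT2 and 3929 CPM in WT1, 5214 CPM in KD and 5477 CPM in Ctrl. It was higher in the second library of both titles, 1.32-fold in pKO2 against pKO1 (1.29 to 1.36) and 1.42-fold in WT2 against WT1 (1.38 to 1.46). Actg1 made up 4.52% of the counts of both actins in pKO2 and 4.89% in WT2, against 13.5 to 18.7% in the other 5 libraries. The expected count of Actb was not whole in any library, and 3 other genes share some 30-base words of its last 300 bases. Joined, the actins came to a ratio of 1.13 in pKO2 against pKO1 and 1.24 in WT2 against WT1. In bulk RNA, fewer cells with a transcript and less of it per cell cannot be told apart.

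Tmsb10 (gene 19240, chromosome 6) was at 250 CPM in pInv, 197 CPM in pKO2 and 353 CPM in pKO1, 80.4 CPM in WT2 and 328 CPM in WT1, 242 CPM in KD and 141 CPM in Ctrl. Its low library was WT2, at 0.245 of WT1 (0.203 to 0.294). The level in pKO2, at 0.559 of pKO1 (0.497 to 0.628), lay above Ctrl. Another gene, Gm9844, shares most of the 30-base words of the last 300 bases of Tmsb10, whose expected count was whole in every library. Tmsb4x (gene 19241, chromosome X) had 5.09 CPM in pInv, 2.05 CPM in pKO2 and 19.1 CPM in pKO1, 1.2 CPM in WT2 and 8.25 CPM in WT1, 40.6 CPM in KD and 3.05 CPM in Ctrl. These rest on 5 counts in pKO2 and 40 in pKO1, and on 2 counts in WT2 and 22 in WT1, and give ratios of 0.107 (0.0331 to 0.272) and 0.146 (0.0166 to 0.592). The thymosin genes thus shared the direction, at very different depth.

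Cfl1 (gene 12631, chromosome 19) had the narrowest range of the set, at 96.8 CPM in pInv, 114 CPM in pKO2 and 117 CPM in pKO1, 72.6 CPM in WT2 and 99.3 CPM in WT1, 134 CPM in KD and 122 CPM in Ctrl. Its ratio was 0.979 for pKO2 against pKO1 (0.821 to 1.17) and 0.731 for WT2 against WT1 (0.585 to 0.91). Pfn1 (gene 18643, chromosome 11) had at most 7 counts in any library but KD, which had 27. Its counting intervals were wide, from 0.136 to 3.19 for pKO2 against pKO1 and from 0.00813 to 4.05 for WT2 against WT1.

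Tuba1b (gene 22143, chromosome 15), which encodes an alpha tubulin, a building block of microtubules, was at 4093 CPM in pInv, 2118 CPM in pKO2 and 3018 CPM in pKO1, 1637 CPM in WT2 and 2986 CPM in WT1, 2827 CPM in KD and 3004 CPM in Ctrl. WT2 and pKO2 were again the lowest, with ratios of 0.702 for pKO2 against pKO1 (0.676 to 0.728) and 0.548 for WT2 against WT1 (0.525 to 0.573). Its near relative Tuba1a had ratios of 0.571 and 0.532 in the same pairs, and Tuba1c ratios of 1.28 and 1.39, the other way. Tuba1b made up 61.1% of the counts of these 3 alpha tubulins in pKO2 and 51.2% in WT2, against 67.2 to 70.3% in the other 5 libraries. The expected count of Tuba1b was not whole in any library. Some 30-base words of its last 300 bases occur in 16 other genes, 13 of them pseudogenes, though none shares most of them. How reads were split between such features was not tested, so these shares are uncertain.

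Ubb (gene 22187, chromosome 11) had the widest range, at 25.5 CPM in pInv, 2.05 CPM in pKO2 and 37.7 CPM in pKO1, 3.6 CPM in WT2 and 31.1 CPM in WT1, 83.1 CPM in KD and 51.3 CPM in Ctrl. WT2 and pKO2 were below all others, with ratios of 0.0544 for pKO2 against pKO1 (0.0172 to 0.132, from 5 counts and 79) and 0.116 for WT2 against WT1 (0.0413 to 0.263, from 6 counts and 83). The row is uncertain: RSEM splits reads that match several features, the expected count of Ubb was not whole in any library, and 2 other genes, Ubb-ps and Gm8797, share most of the 30-base words of its last 300 bases. The Ubb-ps row held far more counts than Ubb, at 364.9 to 674 CPM, and Ubb made up 0.414% of the 2 rows together in pKO2 and 0.977% in WT2, against 4.67 to 12.7% in the other 5 libraries. Joined, the 2 rows came to a ratio of 0.839 in pKO2 against pKO1 (0.775 to 0.909) and 0.553 in WT2 against WT1 (0.503 to 0.606).

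**Figure D2:**
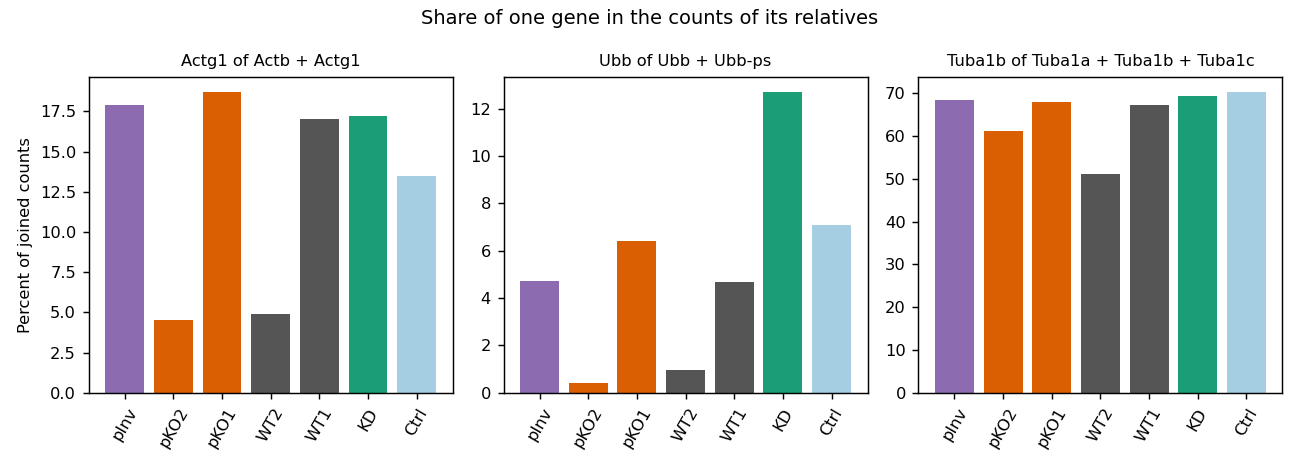
Share, in percent of joined counts per library, of Actg1 in both cytoplasmic actins, of Ubb in the rows of Ubb and Ubb-ps, and of Tuba1b in 3 alpha tubulins. In each panel the bars of pKO2 and WT2 are the lowest, at 4.52% and 4.89% for Actg1, 0.414% and 0.977% for Ubb, and 61.1% and 51.2% for Tuba1b.

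H2az1 (gene 51788, chromosome 3) was at 2148 CPM in pInv, 839 CPM in pKO2 and 1701 CPM in pKO1, 614 CPM in WT2 and 1677 CPM in WT1, 1731 CPM in KD and 1596 CPM in Ctrl. Its ratio was 0.493 for pKO2 against pKO1 (0.467 to 0.521) and 0.366 for WT2 against WT1 (0.342 to 0.392), with WT2 and pKO2 clear of the other 5 libraries. H2az2, which encodes the second form of H2A.Z, had ratios of 0.513 and 0.288 in the same pairs. The deposited gene length of H2az1, which RSEM weights by the transcripts it assigns reads to, was 1122 bases in pKO2 and 1185 bases in WT2, against 1082 to 1090 bases in the other 5 libraries.

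Across the set, 5 of 9 genes (Actg1, Ubb, Tmsb4x, H2az1 and Tuba1b) had WT2 and pKO2 as their 2 lowest libraries, against 13.8% of all 10265 genes tested. A difference of 2-fold or more in both pairs was found for 4 of 9 (Actg1, Ubb, Tmsb4x and H2az1), against 5.28% of all genes tested. As these values chose the genes, both counts are descriptions. By that measure H2az1 lay just inside, 2.03-fold lower in pKO2, and Tmsb10 just outside, 1.79-fold lower in pKO2. The median log2 ratio of the 9 genes was −0.84 for pKO2 against pKO1 and −1.45 for WT2 against WT1, beside medians over all genes tested of 0 and −0.02. Of all genes with a mean of 2000 CPM or more, 2.08% (n = 48) were at least 2-fold lower in pKO2 and 4.17% in WT2, against 9.01% and 18.6% of the 3784 genes at 5 to 20 CPM. Between these levels the share in pKO2 did not fall steadily: 3.7% at 20 to 100 CPM, 2.22% at 100 to 500 CPM and 4.73% at 500 to 2000 CPM. In WT2 these shares were 11.6%, 9.18% and 8.88%.

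**Figure D3:**
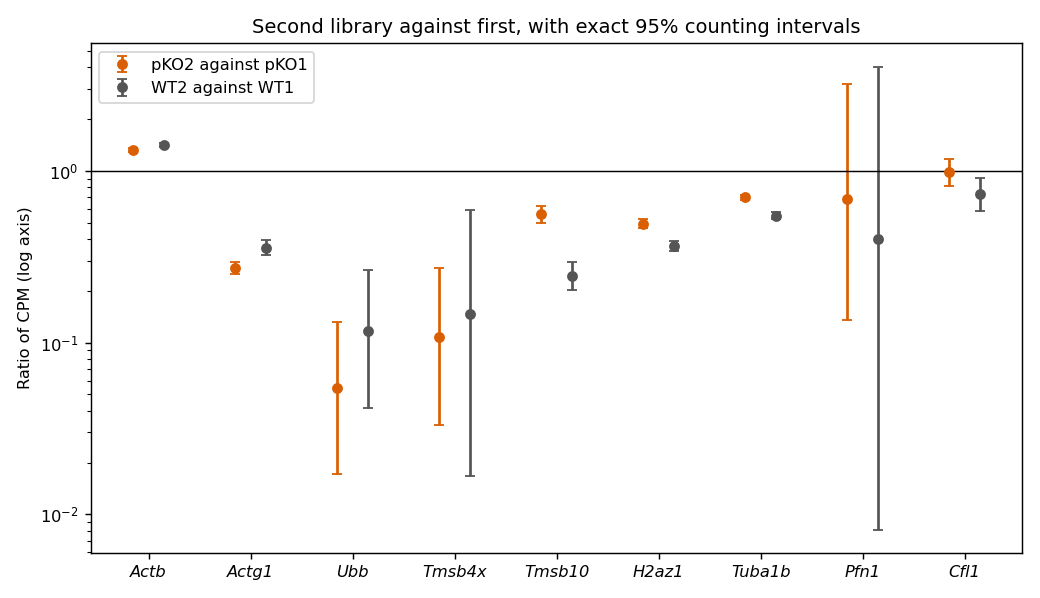
Ratio of CPM of the second to the first library of the same title (log axis) for each gene, with exact 95% binomial intervals for counting error. Actb lies above 1 in both titles, at 1.32 and 1.42, and the other 8 genes lie below 1 in both. The intervals of Actg1, Ubb, Tmsb4x, Tmsb10, H2az1 and Tuba1b lie below 1 in both titles. Those of Pfn1 hold 1 in both, and that of Cfl1 holds 1 for pKO2 against pKO1.

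Set against WT to ask about the loss of the Meteor promoter, pKO differed by less than the SD of either title in 6 of the 9 genes, namely Actb, Actg1, Ubb, Tmsb10, H2az1 and Tuba1b. Actb averaged 5588 ± 1098 CPM in pKO and 4746 ± 1156 CPM in WT (SD, n = 2 each). Actg1 averaged 703 ± 569 CPM in pKO and 544 ± 366 CPM in WT, and H2az1 averaged 1270.0 ± 609.8 CPM in pKO and 1145 ± 752 CPM in WT. The difference was larger than either SD in Cfl1, at 115 ± 1.76 CPM in pKO and 86.0 ± 18.9 CPM in WT, and in Pfn1, at 2.02 ± 0.528 CPM in pKO and 1.05 ± 0.636 CPM in WT. Tmsb4x, at 10.6 ± 12.1 CPM in pKO and 4.72 ± 4.98 CPM in WT, differed by more than the SD of WT and less than that of pKO.

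For pKO against WT the quasi-likelihood test of edgeR, after Benjamini-Hochberg adjustment, called no gene (0% of 10265), and 106 genes (1.03%) were under 0.05 before adjustment. The count was also 0 by DESeq2, by limma-voom and by limma on TPM. All 9 genes had an adjusted p of 1, with log2 differences of 0.12 (Ubb, SE 1.12) to 1.01 (Tmsb4x, SE 1.0). Between them lay Tuba1b (0.15, SE 0.36), H2az1 (0.15, SE 0.51), Actb (0.24, SE 0.30), Actg1 (0.37, SE 0.64), Tmsb10 (0.42, SE 0.59), Cfl1 (0.42, SE 0.28) and Pfn1 (0.80, SE 0.91). The median was 0.37 beside 0 for all genes tested. All 9 were fitted higher in pKO under each way of scaling the libraries, while limma turned Ubb lower (−0.60 with voom and −0.09 on TPM). In pKO, Cfl1 (114 CPM in pKO2 and 117 CPM in pKO1) lay above WT (72.6 CPM in WT2 and 99.3 CPM in WT1), with a log2 difference of 0.42 (SE 0.28, unadjusted p = 0.172, adjusted p = 1). Pfn1, with few counts, was the only other gene of the set without overlap, against 12% of all genes that lay above and 12.9% that lay below. The median rests on single libraries: it was −0.17 without WT2, −0.12 without pKO1, 1.3 without WT1 and 0.79 without pKO2, and −0.12 with groups from the genotype field.

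In pInv, the library of the inverted promoter, Tuba1b and H2az1 had their highest levels of all 7 libraries and Actb its lowest. None was called against WT (0% of 10265 by edgeR, 1.48% at an unadjusted p under 0.05, and 0 called by DESeq2, limma-voom and limma on TPM). Tuba1b had a log2 difference of 0.82 over WT (SE 0.43, unadjusted p = 0.0895), H2az1 of 0.91 (SE 0.60, unadjusted p = 0.171) and Actb of −0.48 (SE 0.38), each with an adjusted p of 1. Without WT2, which was low for the first 2 genes, the log2 difference was 0.45 for Tuba1b and 0.35 for H2az1. Smaller beside their errors were Actg1 (0.44, SE 0.77), Ubb (0.49, SE 1.32), Tmsb10 (0.28, SE 0.71), Pfn1 (0.57, SE 1.12) and Cfl1 (0.17, SE 0.34), all with an adjusted p of 1. The median of the 9 genes was 0.44, with 7 higher and 2 lower, beside −0.01 for all genes tested. Tmsb4x, at −0.01 (SE 1.22), was one of the 2 lower and turned higher, at 0.06, when libraries were scaled by total count.

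Against pKO, which shares the pInv library with the comparison above, Actb had a log2 difference of −0.72 (SE 0.38, unadjusted p = 0.0961), Tuba1b of 0.67 (SE 0.43) and H2az1 of 0.76 (SE 0.60), with adjusted p = 1 for all 3 by edgeR. Of the others, Actg1 was at 0.07 (SE 0.78), Ubb at 0.38 (SE 1.33), Tmsb4x at −1.02 (SE 1.25), Tmsb10 at −0.14 (SE 0.72), Pfn1 at −0.23 (SE 1.04) and Cfl1 at −0.25 (SE 0.34), again with an adjusted p of 1. The median was −0.14 with 4 genes higher and 5 lower, beside 0 for all genes tested. No gene was called (0% of 10265, and 1.49% at an unadjusted p under 0.05), and DESeq2, limma-voom and limma on TPM called 0. With 1 library, pInv takes its spread from pKO and WT in both comparisons.

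KD and Ctrl are 1 library each, so their difference has no replicate check and no test. The most abundant genes differed least: Actb had a KD to Ctrl ratio of 0.952 (0.927 to 0.977), Tuba1b of 0.941 (0.908 to 0.976) and H2az1 of 1.08 (1.03 to 1.14). Actg1 was at 1.26 (1.19 to 1.34), Ubb at 1.62 (1.26 to 2.09) and Tmsb10 at 1.71 (1.48 to 1.99). For Ubb joined with Ubb-ps the ratio was 0.901 (0.836 to 0.97), on the other side of 1. Cfl1 had a ratio of 1.09, and its interval, 0.919 to 1.3, held 1.

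Tmsb4x stood apart, with 40.6 CPM in KD (88 counts) and 3.05 CPM in Ctrl (6 counts), a ratio of 13.3 (5.89 to 37.3). KD was its highest library, above pKO1 at 19.1 CPM. Pfn1 also had its highest level in KD, 12.5 CPM (27 counts) against 3.55 CPM in Ctrl (7 counts), a ratio of 3.51 (1.49 to 9.54). Of the 8 genes at 20 CPM or more in either library, Tmsb4x was the only one at 2-fold or more higher and none was 2-fold lower, against 4.03% and 1.26% of the 5083 genes at that level. Tmsb4x met that level only through KD, the library where it was high, so its place in the count is a description. Pfn1, below that level, passed the filter on low counts only through KD. The median log2 ratio of the 9 genes was 0.34, beside 0.01 for all genes tested.

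Of the macrophage markers, Lyz2, Csf1r and Cd14 stood high in KD. Of 10, 6 were higher there than in each of the other 6 libraries, with Lyz2 at 175 CPM in KD against 0 to 0.75 CPM, and Csf1r (12.5 CPM), Cd14 (18.5 CPM) and C1qb (1.39 CPM) at 0 in all the others. Among these 6, Cd68, C1qb and Tyrobp rested on just 4, 3 and 6 counts in KD. C1qa, Ptprc and Fcer1g were at 0 in KD, and C1qc, at 77.1 CPM in KD, lay within the range of the others, 67.8 to 131 CPM. Without C1qc the list summed to 212 CPM in KD and 1.02 CPM in Ctrl, and to 1.02 to 2.97 CPM over all libraries but KD. Of 8 endothelial and blood markers, Kdr, an endothelial receptor gene, was at 119.6 CPM in KD against 18.3 CPM in Ctrl, and the other 7 were near the floor, at 0 to 1.39 CPM in KD and 0 to 1.52 CPM in Ctrl. Their part in the levels of Tmsb4x and Pfn1 was not tested.

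**Figure D4:**
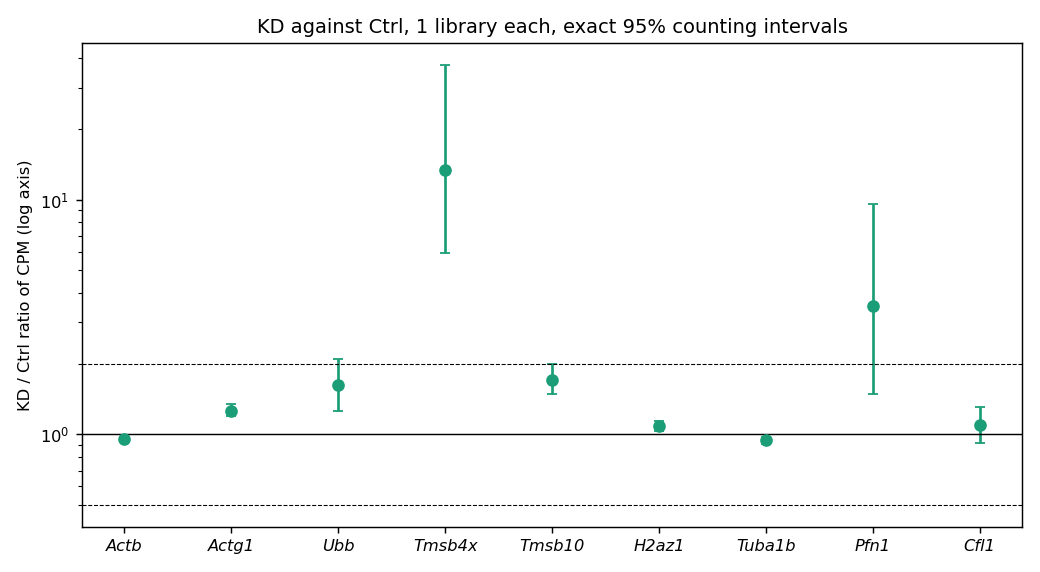
Ratio of CPM in KD to CPM in Ctrl (log axis) for each gene, 1 library each, with exact 95% binomial intervals for counting error and dashed lines at 2-fold. Tmsb4x, at 13.3, and Pfn1, at 3.51, lie above the upper dashed line, and the other 7 genes lie between the lines.

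Patterns over the 7 libraries fell into a few kinds, given as correlations of log2 CPM, which share library and depth and carry no test. Actg1 was most like Ubb (r = 0.966), H2az1 most like Tuba1b (0.968), and Pfn1 most like Cfl1 (0.782). Tmsb4x was nearest to Actg1 (0.796) and Tmsb10 to H2az1 (0.743). Actb was the gene least like each of the other 8, with r down to −0.753 against Tuba1b. Among 1198 other genes with a mean of 100 CPM or more, the 5 most like the mean of the 9 were Lars (r = 0.996), a leucyl-tRNA synthetase, Cct2 (0.99), a subunit of the chaperonin that folds actin and tubulin, the ribosomal protein genes Rpl27 (0.989) and Rpl7a (0.983), and Anp32e (0.983), a chaperone that removes H2A.Z from chromatin. Cct2, for one, was at 142 CPM in pKO2 and 204 CPM in pKO1, and at 121 CPM in WT2 and 192 CPM in WT1.

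Lists of genes of the same pathways, some of which hold genes of the set, gave no called gene. No gene at all (0% of 10265) was called in any comparison tested. Genes tested for monomer binding and severing were Tmsb4x, Tmsb10, Pfn1 and Cfl1, all fitted higher in pKO than WT, and 8 others. Of these 12, 9 were fitted higher and 3 lower (median log2 difference 0.26). Destrin (Dstn), a relative of cofilin and the most abundant of them, was at 712 CPM in pKO2 and 558 CPM in pKO1, and at 618 CPM in WT2 and 490.3 CPM in WT1, higher in the second library as Actb was. Of 11 Arp2/3 and capping genes, which build branched actin, 8 were higher and 3 lower (0.31), and of 26 bundling, membrane and myosin genes 19 were higher and 7 lower (0.16). The 16 tubulin genes tested, with Tuba1b among the higher, split into 7 higher and 9 lower (−0.08). The 19 ubiquitin genes, with Ubb among the higher, split into 10 and 9 (0.02). Of 7 replication-independent histone variants, 5 were higher, H2az1 among them, and 2 lower (0.17).

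SRF target genes, a list that holds Actb and Actg1, had 11 of 16 tested members higher in pKO than WT and 5 lower, with a median of 0.28. Its members differed in pattern: Srf itself was at 18.9 CPM in pKO2 and 49.2 CPM in pKO1, and at 4.2 CPM in WT2 and 48.0 CPM in WT1, while Flna, a filamin that crosslinks actin, was at 342 CPM in pKO2 and 259 CPM in pKO1, and at 265 CPM in WT2 and 252 CPM in WT1. The 14 other members had a median log2 ratio of 0.10 for pKO2 against pKO1 and −0.65 for WT2 against WT1. Arp2/3 and capping genes had medians of −0.54 and −0.65 in these pairs, and 3 of 11 had WT2 and pKO2 as their lowest libraries, against 13.8% of all genes tested. Other monomer binding and severing genes had medians of −0.21 and −0.13, and bundling, membrane and myosin genes 0.09 and −0.22. Other histone variants had medians of −0.43 and −1.25, other ubiquitin genes 0.09 and 0.03, and other tubulin genes −0.01 and 0.05. WT2 and pKO2 were lowest for 2 of 14 other SRF target genes, 2 of 8 other monomer binding and severing genes and 5 of 26 bundling genes. The same held for 3 of 6 other histone variants, 2 of 18 other ubiquitin genes and 1 of 15 other tubulin genes.

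Among 13 common reference genes, Eef1a1 showed the pattern of Actg1, with 1663 CPM in pKO2 and 5370.0 CPM in pKO1, and 886.5 CPM in WT2 and 4621 CPM in WT1. Its partner in translation Eef2 was higher in the second libraries, at 2825 CPM in pKO2 and 2229 CPM in pKO1, and at 3928 CPM in WT2 and 2429 CPM in WT1. Rplp0 was at 1741 CPM in pKO2 and 1645 CPM in pKO1, and at 1397 CPM in WT2 and 1658 CPM in WT1. Gapdh was at 1055 CPM in pKO2 and 936 CPM in pKO1, and at 1528 CPM in WT2 and 1562 CPM in WT1, a log2 difference between titles of −0.63 (SE 0.25, adjusted p = 1 in edgeR).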

How the data were processed

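Per the file headers, the authors deposited 1 gene table per library with expected counts, FPKM and TPM. RSEM and mm9 are named in the submitters' processing notes, with no version. Strand setting and treatment of duplicates were not given in sources used here. The deposited expected counts carry no normalization and were rounded to whole numbers before testing. The deposited TPM values, scaled by the authors to length and library, gave levels between genes and 1 alternative, and the deposited FPKM values served no test. Of 17467 single-transcript models, 69.2% were 1900 to 2100 bases longer in the files than in GENCODE M21, so counted features may reach into neighbouring genes and overlapping genes are uncertain. Gene numbers were named from RefSeq tables of GRCm38 (23447 of 24990 features).

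All 7 libraries entered 1 fit with 5 groups by title, using edgeR 4.0.16 (filterByExpr, TMM, quasi-likelihood test, Benjamini-Hochberg over 10265 genes, called at an adjusted p under 0.05) in R 4.3.3. The biological coefficient of variation was 0.294, with 2 residual degrees of freedom. CPM are counts scaled to a common total after TMM. Medians and correlations use log2(CPM + 2). Ratios of 2 libraries have exact binomial 95% intervals, which cover counting error only, and 3 counts correspond to 1.12 to 1.8 CPM. Alternatives used DESeq2 1.42.0, limma 3.58.1, other scalings, no filter, a replicate block, groups from the genotype field and each library left out. The test was tested on simulated data.

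The 9 genes and the lists of other genes were chosen with earlier results of these data known. All 9 were named in each comparison, and from each list at most 4 members with the highest mean CPM. Further markers, Fap among them, were named after their values were seen. Ubb-ps, Tuba1a, Tuba1c and H2az2 were singled out as relatives after their values were seen. Of 198 list entries 193 were matched. The replicate numbers do not count as pairs: the labels tie them to no shared source and there are 2 pairs.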

Additional observations from a re-analysis of the deposited data

How the results depend on the processing

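No alternative brought a gene of the set past the threshold (smallest adjusted p = 0.185, for Tmsb10 in pKO against WT without WT1), and 308 of 354 recomputed log2 differences kept their direction; the cause was not tested for those that turned. Counts of all genes called, 0 in each comparison, were 9, 6 and 8 with no filter on low counts (pKO against WT, pInv against WT, pInv against pKO), 1 with the replicate block and 7 with groups from the genotype field for pInv against WT, and 0 to 7 with a library left out for pKO against WT and for pInv against pKO.

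The median of the 9 genes in pKO against WT was −0.17 to 1.3 with a library left out and −0.12 with groups from the genotype field. For WT2 against WT1 it was −1.69 by total count, −1.57 without 45S and −1.69 on TPM, and for KD against Ctrl 0.46 by total count.

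Groups from the genotype field turned, for pKO against WT, Actb (−0.04), Tmsb10 (−0.12), H2az1 (−0.38), Tuba1b (−0.43), Pfn1 (−0.55) and Cfl1 (−0.29), for pInv against WT Tmsb4x (2.41) and Tuba1b (−0.04), and for pInv against pKO Actb (0.02), Tmsb4x (1.89), Tmsb10 (0.78), Pfn1 (1.05) and Cfl1 (0.44). In pKO against WT, Ubb was −0.60 with voom and −0.09 on TPM. In pInv against WT, Tmsb4x was 0.06 by total count, 0.06 in DESeq2, 0.29 with voom and 0.48 on TPM. With the replicate block, pInv against WT gave Actg1 −0.21, Ubb −0.40 and Tmsb10 −0.14, and pInv against pKO gave Actg1 −0.49 and Ubb −0.46. Differences between libraries 1 and 2 correlated across genes between the titles (Pearson r = 0.509 over 4682 genes at 20 CPM or more), and the cause was not tested. Joining Ubb with Ubb-ps, chosen after seeing the data, gave −0.01 for pInv against pKO.

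With a library left out, pKO against WT ran from −0.84 to 1.3 for Actg1, −3.08 to 2.42 for Ubb, −1.27 to 3.04 for Tmsb4x, −0.23 to 1.77 for Tmsb10, −0.44 to 1.05 for H2az1 and −0.20 to 0.65 for Tuba1b. For pInv against WT it ran from −0.12 to 1.37 for Actg1, −0.29 to 2.8 for Ubb, −0.69 to 2.03 for Tmsb4x, −0.40 to 1.63 for Tmsb10 and −0.04 to 0.41 for Cfl1. For pInv against pKO it ran from −0.58 to 1.27 for Actg1, −0.57 to 3.57 for Ubb, −1.9 to 1.26 for Tmsb4x, −0.50 to 0.32 for Tmsb10 and −0.48 to 0.02 for Pfn1. Depth limits Pfn1 and Tmsb4x most, with 52 and 175 counts in all.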
